A study of Arabidopsis thaliana with 6 samples.

Results

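The 8 histone H4 genes of *Arabidopsis thaliana* were followed in the transcriptomes of seedlings of 3 genotypes. They were chosen by locus identifier as the genes that encode histone H4, a rule that uses no measured value (although earlier results of these data were known when the family was taken up), and all 8 were found among the 33242 genes of the 5 chromosomes (64621 features with transposable elements and other loci included). WT plants were of the Col-0 ecotype. *nerd-1* plants carry a T-DNA insertion in *NERD* in the same ecotype, and the complemented line *nerd-1*+T consists of *nerd-1* plants that express a flag-tagged version of NERD, so that both groups share the mutant allele. Polyadenylated RNA was sequenced from 14-d-old whole seedlings, with 2 replicates per genotype and 6 libraries in all. Neither the labels nor the Methods say whether the replicates came from separate sowings, so that *p*-values measure only the spread between these samples. The H4 genes were taken up as a possible sign of dividing cells. In *nerd-1* against WT, the lists of DNA replication, H2B and H3.1 genes held more genes that were lower than genes that were higher. Both lists of H2A genes held more that were higher. Against *nerd-1*+T, 5 DNA replication genes were higher in *nerd-1* and 0 lower. All these counts are given below beside the shares of all features.

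The values are FPKM (fragments per kilobase of transcript, scaled to the mapped fragments of the library), a level per length. They summed to between 847355 and 966119 per library. The labels give 21000000 to 52000000 reads per library, but FPKM hold no read counts and the depth behind each value is unknown. *NERD* itself (14.1 and 13.9 FPKM in WT) was measured at 7.59 and 7.45 FPKM in *nerd-1* and at 63.7 and 63.5 FPKM in the complemented line, so that its mRNA was reduced but still present in the mutant and above the WT level in the complemented line. One metallothionein gene, *MT1A*, held 12.9% and 13.5% of all FPKM in *nerd-1* and at most 3.57% in the other libraries. The leaf gene *CAB1* was listed at 0 in 3 libraries (both of *nerd-1* and the second of *nerd-1*+T) and at 11623 to 13469 FPKM in the others. No H4 gene was listed at 0 in any library.

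Histone H4 pairs with H3 to form the central tetramer of the nucleosome, to which dimers of H2A and H2B are added. The amount of DNA to be packaged increases during S phase, and most H4 mRNA of plants accumulates in cells that replicate their DNA, in meristems and young organs as well as in cells that endoreduplicate. Unlike the replication-dependent histone mRNAs of animals, those of plants are polyadenylated and are thus captured by poly(A) selection. H4 has no variants in *Arabidopsis*, in contrast to H3, which comes as the replication-coupled H3.1 and the replication-independent H3.3, and to H2A with its variants H2A.X, H2A.Z and H2A.W.

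All 8 genes carried a coding sequence of 312 bases in the RefSeq annotation of TAIR10.1, and the 8 coding sequences translate into 1 and the same protein of 103 residues. The genes thus differ only in synonymous bases and outside the coding sequence. Of the 312 positions, 103 (33.0%) varied among the 8 genes, 85 of them at the third base of a codon. The first 60 coding bases are shown because they make visible which genes resemble each other. Each is written 5′ to 3′ on the coding strand, and capitals mark a base that differs from the commonest one at that position among the 8 genes (the first in the alphabet in case of a tie).
AT1G07660 (chr1:2369212-2369271, plus strand): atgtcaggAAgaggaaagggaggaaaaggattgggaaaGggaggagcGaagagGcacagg
AT1G07820 (chr1:2421687-2421746, minus strand): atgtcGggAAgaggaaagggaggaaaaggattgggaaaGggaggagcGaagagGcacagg
AT3G45930 (chr3:16883390-16883449, plus strand): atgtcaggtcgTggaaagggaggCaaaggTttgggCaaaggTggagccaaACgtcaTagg
AT3G46320 (chr3:17020295-17020354, minus strand): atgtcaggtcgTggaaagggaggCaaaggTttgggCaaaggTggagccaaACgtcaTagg
AT5G59690 (chr5:24051649-24051708, plus strand): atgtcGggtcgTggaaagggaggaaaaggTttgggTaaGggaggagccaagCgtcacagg
AT5G59970 (chr5:24146604-24146663, minus strand): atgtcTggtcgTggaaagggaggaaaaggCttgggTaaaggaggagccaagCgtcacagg
AT2G28740 (chr2:12329895-12329954, minus strand): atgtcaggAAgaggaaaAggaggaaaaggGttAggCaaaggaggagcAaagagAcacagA
AT3G53730 (chr3:19912911-19912970, minus strand): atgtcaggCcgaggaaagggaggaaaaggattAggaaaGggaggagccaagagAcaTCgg

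These sequences fall into 3 near-identical pairs and 2 genes without a close partner. AT1G07660 and AT1G07820 shared 98.1% of their coding bases (6 differences), AT3G45930 and AT3G46320 97.4% (8 differences), and AT5G59690 and AT5G59970 97.1% (9 differences). The members of each pair lie on the same chromosome and on opposite strands. The other 25 of the 28 possible pairs of H4 genes shared only between 78.8% and 87.8%, and every pair that includes AT2G28740 or AT3G53730 is among these 25.

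This likeness bears on how far the values of single genes can be told apart. Along each annotated transcript, windows of the read length (125 bases) were compared with those of the other H4 transcripts. AT3G46320 and AT3G45930 had 33.5% and 30.5% of their windows within 2 mismatches of another H4 transcript, AT1G07660 and AT1G07820 26.9% and 18.9%, and AT5G59690 and AT5G59970 6.60% and 5.29%. AT2G28740 and AT3G53730 had 0%. Windows that were wholly identical between genes were found in the pair on chromosome 3 (36 in each gene) and in the pair on chromosome 1 (13 in each). For the paired genes the split of reads between the members is therefore uncertain, and the sums of the pairs are given alongside the single genes. None of the 8 genes overlapped another annotated gene.

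The gene models are short. They span from 644 bases (AT3G46320, chr3:17019785-17020428) to 1131 bases (AT3G53730, chr3:19912385-19913515), and the representative transcript has 1 exon in all genes except AT1G07660, which has 2. In the 250 bases before the transcript start, 3 elements known from plant S-phase promoters were searched on both strands, as well as TATAAA on the coding strand. The octamer CGCGGATC, described in promoters of plant histone genes, was found in 2 of the 8 H4 promoters, against 0.135% of 27443 promoters of protein-coding genes. Of the H3.1 promoters 3 of 5 held it, of those of the core H2A genes 2 of 4, and of those of the H2B genes 0 of 11. The hexamer ACGTCA was in 0 of the 8 H4 promoters but in 8 of 11 H2B promoters (72.7%), against 7.69% of all promoters. TTTCCCGC, a binding sequence of E2F factors, was in 0 of 8 H4 promoters and in 5 of the 19 promoters of a list of DNA replication genes (26.3%), against 0.619% of all. TATAAA was in 4 of 8 H4 promoters and in 32.9% of all. A match of letters is a description and says nothing of whether a factor binds. Stretches of 90 bases are shown for 4 genes, because the first 2 hold the histone element and the last 2 are nearly the same sequence. Counted in bases before the transcript start, they run from 167 to 78 in AT1G07660, from 112 to 23 in AT5G59690 and from 90 to 1 in AT3G45930 and AT3G46320. Capitals mark the octamer in the first 2 and TATAAA in the last 2.
AT1G07660 (chr1:2368666-2368755, plus strand): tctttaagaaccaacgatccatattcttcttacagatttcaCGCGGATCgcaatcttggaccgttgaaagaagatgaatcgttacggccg
AT5G59690 (chr5:24051362-24051451, plus strand): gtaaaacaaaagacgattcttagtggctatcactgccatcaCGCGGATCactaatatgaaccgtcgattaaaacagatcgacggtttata
AT3G45930 (chr3:16883226-16883315, plus strand): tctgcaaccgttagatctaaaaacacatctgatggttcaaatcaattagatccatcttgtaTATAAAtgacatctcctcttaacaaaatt
AT3G46320 (chr3:17020429-17020518, minus strand): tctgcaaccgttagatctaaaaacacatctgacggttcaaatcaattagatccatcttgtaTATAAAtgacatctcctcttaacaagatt

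The octamer begins 126 bases before the start of AT1G07660 and 71 bases before that of AT5G59690. The partners of these genes, AT1G07820 and AT5G59970, lack it in this window. AT3G45930 and AT3G46320 differed at 3 of the 250 bases before their start and at 2 of the 90 shown, so that this pair is alike in its promoter as well as in its coding sequence. When compared base by base without gaps, the other pairs differed at 184 (AT1G07660 and AT1G07820) and 162 (AT5G59690 and AT5G59970) of 250 bases. The transcripts of these pairs have 198 and 320, and 175 and 66, bases before the coding sequence, against 74 in both genes on chromosome 3. Windows counted from the transcript start are thus shifted, and these 2 counts cannot tell whether the promoters are alike.

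In WT seedlings the 8 genes spanned a 7.05-fold range of mean FPKM. AT2G28740 had 174 and 132 FPKM, AT3G53730 140.3 and 134, and AT5G59690 129.7 and 117. These 3 genes made up 68.9% and 67.1% of the summed H4 FPKM in the 2 WT libraries. At an intermediate level, AT1G07820 had 70.0 and 66.7 FPKM and AT5G59970 60.6 and 55.3. AT1G07660 (24.1 and 24.4), AT3G46320 (24.7 and 19.1) and AT3G45930 (21.0 and 22.3) were the lowest. In this order of the WT means, the libraries of the neighbouring genes overlapped between AT2G28740 and AT3G53730 and among the 3 lowest genes, and all other neighbours were apart. All 8 genes were strongly expressed, with mean levels between the 79.1 and the 97.6 percentile of all genes. The 2 members of each near-identical pair did not share a level, except those of the pair on chromosome 3.

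**Figure D1:**
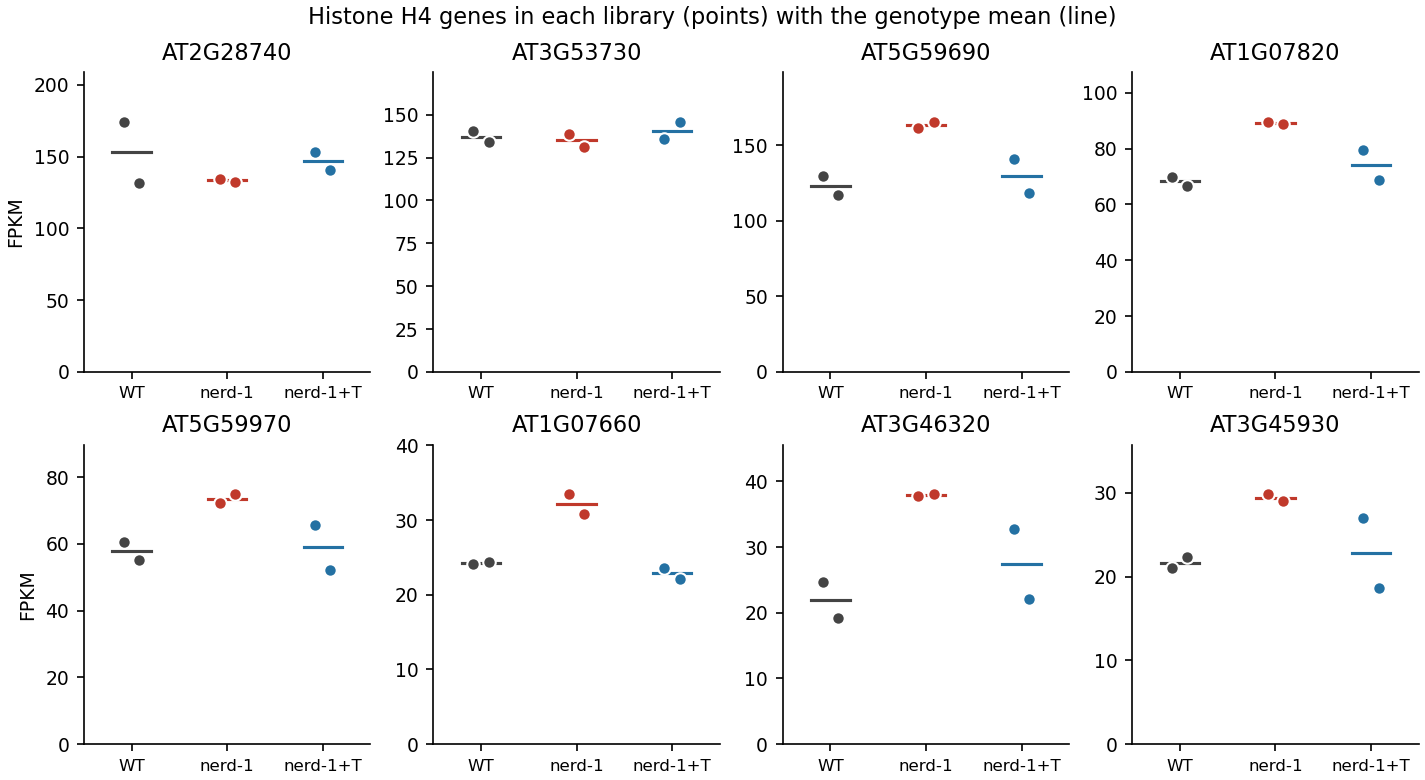
FPKM of the 8 H4 genes (vertical axes, each starting at 0) in the 2 libraries of WT, *nerd-1* and *nerd-1*+T (points), with the mean of each genotype (line), ordered by WT mean. Both *nerd-1* points lie above the 4 other points in 6 genes, but not in AT2G28740 and AT3G53730.

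The first comparison asks how H4 mRNA stood in *nerd-1* against WT. In *nerd-1* 4 of the 8 genes were higher and 0 lower than in WT (limma on log2(FPKM + 1), adjusted *p*-value under 0.05 over the 20249 features tested, all 8 H4 genes among them). Among all features, 19.4% were higher and 36.3% lower. The median log2 difference of the 8 genes was 0.39, against −0.11 for all features. Both *nerd-1* libraries lay above all 4 other libraries in 6 of the 8 genes, which was the case for 21.7% of the features. In bulk RNA of whole seedlings, fewer or more cells of a type and less or more RNA per cell cannot be told apart.

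AT3G46320 showed the largest difference of the H4 genes. Its WT libraries stood at 24.7 and 19.1 FPKM and its *nerd-1* libraries at 37.8 and 38.0, a ratio of means of 1.73 and a log2 difference of 0.78 (SE 0.20, adjusted *p*-value = 0.0232, limma). The *nerd-1* libraries were close to each other and both above the WT libraries, which were themselves apart. Its near-identical partner AT3G45930 stood at 21.0 and 22.3 FPKM in WT, below the *nerd-1* values of 29.8 and 29.0. Here also the genotypes did not overlap, but the log2 difference of 0.42 (SE 0.16) did not pass the test (limma, adjusted *p*-value = 0.0751). The summed FPKM of this pair came to 45.7 and 41.5 in the WT libraries, against 67.7 and 67.0 in those of *nerd-1* (log2 difference 0.62, SE 0.17, limma adjusted *p*-value = 0.0303).

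In AT1G07660, 24.1 and 24.4 FPKM were measured in WT, compared with 33.4 and 30.9 FPKM in *nerd-1*. This rise of 0.39 on the log2 scale (SE 0.06, limma adjusted *p*-value = 0.00466) was the most precise among the H4 genes and passed the threshold under every alternative that kept it as a single gene. AT1G07820, its partner, reached 89.5 and 89.0 FPKM in *nerd-1* from 70.0 and 66.7 in WT, with a log2 difference of 0.38 (SE 0.08, limma adjusted *p*-value = 0.0105). Thus the members of this pair, which differ 2.82-fold in WT mean, changed by nearly the same factor. Their sum gave a log2 difference of 0.39 (limma adjusted *p*-value = 0.00736).

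AT5G59690 was the only one of the 3 most abundant H4 genes that rose. Its level of 129.7 and 117 FPKM in WT compared with 161 and 165 in the mutant (log2 difference 0.40, SE 0.10, limma adjusted *p*-value = 0.0189). AT5G59970 went from 60.6 and 55.3 FPKM in WT to 72.1 and 74.8 in the mutant, again without overlap, with a log2 difference of 0.34 (SE 0.11) that did not pass (limma adjusted *p*-value = 0.0513). The sum of the pair passed the test, with a log2 difference of 0.39 and a limma adjusted *p*-value of 0.0262.

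The 2 genes without a close partner did not rise. For AT3G53730 the WT libraries gave 140.3 and 134 FPKM and the mutant libraries 139 and 131, with overlapping libraries and a log2 difference of −0.02 (95% interval from −0.18 to 0.13, limma adjusted *p*-value = 0.763). For AT2G28740 the WT values were 174 and 132 FPKM, those of the mutant 134 and 132, and the first WT library stood apart from the other 3. Its log2 difference was −0.18 (95% interval from −0.52 to 0.15, limma adjusted *p*-value = 0.284). Without the first WT library the log2 difference became 0.02, and without the second it was −0.38 (limma adjusted *p*-value = 0.0372), so that the direction for this gene depends on 1 WT library.

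The calls of AT1G07820, AT3G46320 and AT5G59690 rest on small groups. Leaving out the second WT library or either *nerd-1* library brought the adjusted *p*-values of these 3 genes (limma) to between 0.0642 and 0.115, with log2 differences between 0.33 and 0.78. Leaving out either *nerd-1*+T library, which enter this comparison only through the shared estimate of the spread, brought AT3G45930 and AT5G59970 past the threshold (limma adjusted *p*-values between 0.000905 and 0.00377).

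**Figure D2:**
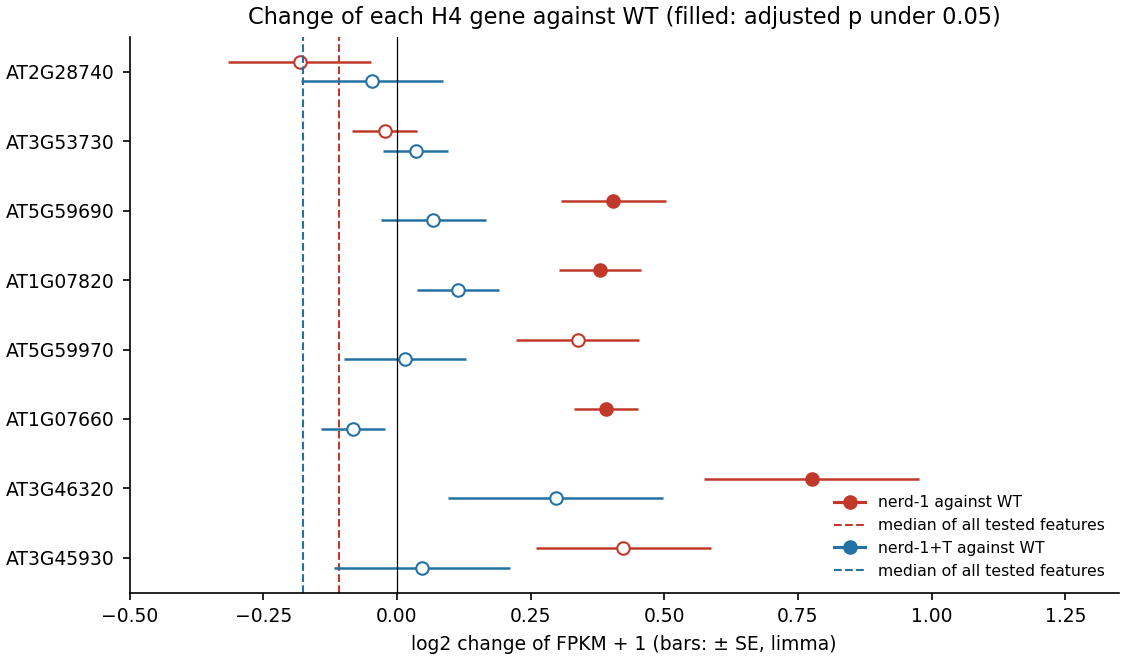
Log2 difference of FPKM + 1 against WT (horizontal axis, limma estimate, bars ± SE) of each H4 gene in *nerd-1* (red) and *nerd-1*+T (blue), filled where the adjusted *p*-value was under 0.05, with the medians of all tested features as dashed lines. In *nerd-1*, 6 genes lie between 0.34 and 0.78 with 4 of them filled, and in *nerd-1*+T the 8 genes lie between −0.08 and 0.30 with 0 filled.

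The 4 genes that passed as higher in *nerd-1* thus all had a near-identical partner. AT3G45930 and AT5G59970 also have such a partner and did not pass. The 2 genes without one were also the 2 with the highest WT means, so that likeness and level cannot be told apart here. Among the paired genes, the share of windows alike and the log2 difference were 5.29% and 0.34 in AT5G59970 and 6.60% and 0.40 in AT5G59690. They were 18.9% and 0.38 in AT1G07820 and 26.9% and 0.39 in AT1G07660. In AT3G45930 they were 30.5% and 0.42, and in AT3G46320 33.5% and 0.78. The least alike of these genes thus had the smallest difference and the most alike the largest. The 6 genes with a near-identical partner had log2 differences between 0.34 and 0.78 in *nerd-1*, and the 2 genes with no window within 2 mismatches of another H4 transcript had −0.18 and −0.02. As reads may have been shared within a pair, the 6 genes may not be 6 independent observations. When the pairs were summed, all 3 sums were higher in *nerd-1* (3 of 5 H4 features). Whether the sharing of reads between copies plays a part in the differences was not tested. The genes of the same span as the H4 genes (644 to 1131 bases, 1604 tested) had a median log2 difference of −0.04 in *nerd-1* against WT.

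**Figure D3:**
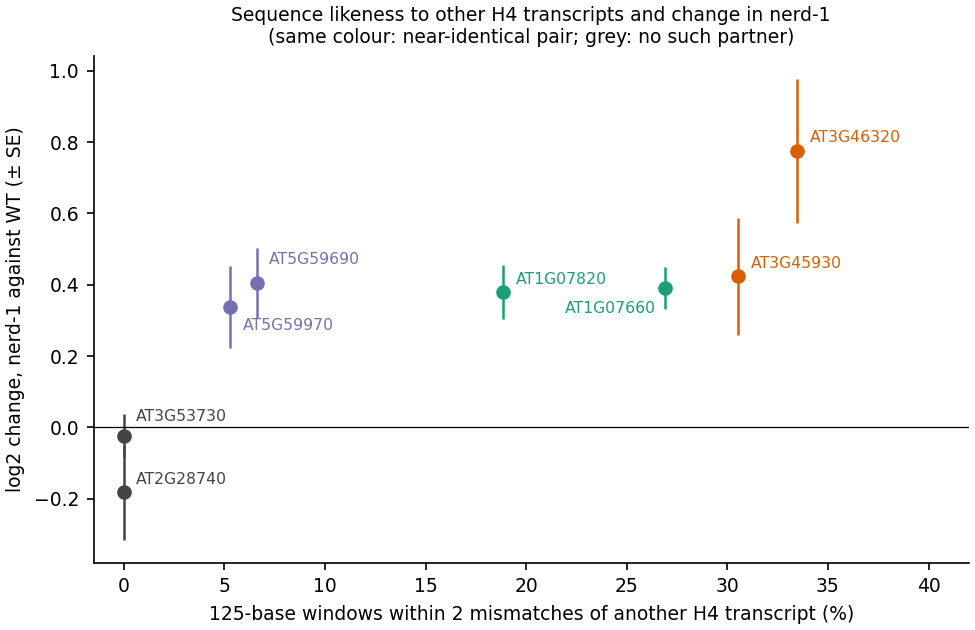
Share of read-length windows (125 bases) of each H4 transcript that lie within 2 mismatches of another H4 transcript (horizontal axis, percent) against the log2 difference of *nerd-1* and WT (vertical axis, bars ± SE). Colours mark the 3 near-identical pairs, which all lie above 0.33, and the 2 grey genes at 0% lie at −0.18 and −0.02.

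In the complemented line, 0 of the 8 genes differed from WT (limma, adjusted *p*-values between 0.258 and 0.917), and 0 had an unadjusted *p*-value under 0.05. Among all features 13.2% were higher and 39.8% lower. The median log2 difference of the 8 genes was 0.04, against −0.17 for all features. The 2 libraries of *nerd-1*+T were less alike than those of the other genotypes: their median SD of log2(FPKM + 1) over all features was 0.0918, against 0.0404 in WT and 0.0362 in *nerd-1*. The first of them was the higher in 7 of the 8 H4 genes, by up to 1.48-fold.

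AT3G45930 had 27.0 and 18.6 FPKM in *nerd-1*+T, 1 value near those of *nerd-1* and the other below both WT libraries. With 1 library left out, the *p*-value assumes that the remaining *nerd-1*+T library varies like those of the other genotypes, whose spread was smaller, so that the following values describe single libraries. Without the first *nerd-1*+T library the log2 difference of AT3G45930 from WT was −0.21 (limma adjusted *p*-value = 0.0235), and without the second it was 0.30 (limma adjusted *p*-value = 0.00628). The interval of its log2 difference with both libraries ran from −0.37 to 0.46. AT3G46320 behaved alike, with 32.8 and 22.1 FPKM (log2 difference from WT 0.30, 95% interval from −0.21 to 0.80). The first library alone lay 0.57 above WT on the log2 scale in this gene and 0.21 above it in AT1G07820 (limma adjusted *p*-values 0.0215 and 0.00840).

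AT5G59690 (140.8 and 118 FPKM), AT5G59970 (65.6 and 52.3) and AT1G07820 (79.5 and 68.9) followed the same order of the 2 *nerd-1*+T libraries, and their values overlapped those of WT. AT1G07660 was at 23.6 and 22.2 FPKM, slightly below both WT libraries, with a log2 difference of −0.08 (95% interval from −0.23 to 0.07). AT2G28740 had 152.9 and 140.6 FPKM and AT3G53730 135.8 and 145.6, both overlapping with WT. These intervals leave room for changes of the size seen in *nerd-1* in AT3G46320 and AT3G45930, but not in AT1G07660.

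Compared with the complemented line, *nerd-1* seedlings had 3 of the 8 H4 genes higher and 0 lower, where 24% of all features were higher and 14% lower. The *nerd-1* libraries are the same ones that entered the comparison with WT. AT1G07660 differed by 0.47 on the log2 scale (SE 0.06, limma adjusted *p*-value = 0.00470), AT5G59690 by 0.34 (SE 0.10, limma adjusted *p*-value = 0.0459) and AT1G07820 by 0.27 (SE 0.08, limma adjusted *p*-value = 0.0439). The last 2 lie close to the threshold and did not pass when either WT library or either *nerd-1* library was left out (limma adjusted *p*-values between 0.0771 and 0.194), and AT5G59690 did not pass without the second *nerd-1*+T library (0.0625). AT3G46320 had a larger difference of 0.48 but did not pass (SE 0.20, limma adjusted *p*-value = 0.114). AT3G45930 (0.38) and AT5G59970 (0.32) did not pass either, although both *nerd-1* libraries were above both libraries of *nerd-1*+T. Against the second *nerd-1*+T library alone these 3 genes passed, under the same assumption on its spread, with log2 differences of 0.75, 0.63 and 0.48. The median of the 8 genes was 0.33, against 0.06 for all features. AT2G28740 (−0.14) and AT3G53730 (−0.06) were again the only H4 genes with values below 0.

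Because the most abundant genes changed least, the summed H4 FPKM moved less than most single genes. The sum of the 8 genes was 644 and 571 FPKM in WT, compared with 697 and 690 FPKM in *nerd-1* and with 658 and 588 FPKM in the complemented line. Both *nerd-1* libraries were above all others in summed FPKM, with a mean 1.14 times that of WT. As a percentage of all FPKM of the library, the sum was 0.075 and 0.066 in WT and 0.073 and 0.071 in *nerd-1*. In *nerd-1*+T it was 0.077 and 0.069. By this measure the genotypes overlapped, so that the higher sum in *nerd-1* depends on the scaling of the libraries. AT2G28740 and AT3G53730 contributed 27.0% and 21.8% of the sum in the first WT library and 23.1% and 23.5% in the second, but between 19.0% and 19.9% each in the *nerd-1* libraries. The sums are given as a description, without a test.

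The other histones did not move with H4 as a group. The 11 H2B genes, of which 10 were tested, had 0 higher and 8 lower in *nerd-1* against WT (median log2 difference −0.53). These 8 are 80%, against 36.3% of all features. In all 10 both *nerd-1* libraries were below both WT libraries. *HTB3* dropped from 293 and 297 FPKM in WT to 99.6 and 96.4 in the mutant (log2 difference −1.58, limma adjusted *p*-value = 0.00209). *HTB2* fell from 440 and 403 FPKM to 199 and 204. At the other end of the list, *HTB5* and *HTB9* were lower by only −0.21 and −0.22 on the log2 scale. The summed H2B FPKM of the *nerd-1* libraries was 0.590 and 0.598 times the WT mean, and that of *nerd-1*+T was 0.752 and 0.862 times. As a result, the ratio of summed H4 to summed H2B FPKM was 0.359 and 0.328 in WT, higher in *nerd-1* (0.668 and 0.653) and intermediate in *nerd-1*+T (0.495 and 0.386), without overlap of the genotypes.

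H3.1, the replication-coupled partner of H4 in the tetramer, had 5 genes, of which 0 were higher and 3 lower in *nerd-1* (60%, against 36.3% of all features). *HTR2* dropped from 186 and 172 FPKM in WT to 94.0 and 92.1 in the mutant (log2 difference −0.94, limma adjusted *p*-value = 0.00369), and *HTR3* fell by 0.42 on the log2 scale. The H3.1 genes with the highest values, *HTR13* and *HTR1*, were at 0.05 each and did not pass. The ratio of summed H4 to summed H3.1 FPKM was 1.45 and 1.34 in the WT libraries, below the 2.09 and 2.12 of *nerd-1* and also below the 1.93 and 1.59 of *nerd-1*+T. Of the 3 genes for the replication-independent H3.3, *HTR5* was higher by 0.44, *HTR4* was lower by −0.30 (log2 scale, limma adjusted *p*-values 0.00974 and 0.0181), and *HTR8* did not pass (0.02). The 3 genes of the linker histone H1 had 0 higher and 1 lower, *H1.2* with a log2 difference of −0.50. This share of 33.3% lies near that of all features.

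H2A was the only other histone with more higher than lower calls in *nerd-1*. Of the 4 core H2A genes, 2 were higher (50%, against 19.4% of all features) and 0 lower (against 36.3%). *HTA1* rose from 16.7 and 16.3 FPKM in WT to 63.9 and 64.9 in the mutant, and the complemented line had 47.5 and 29.6. Its log2 difference in *nerd-1* of 1.90 (limma adjusted *p*-value = 0.00190) exceeded that of every H4 gene. *HTA13* was higher by 0.62 (log2 scale), whereas *HTA10* (0.04) and *HTA2* (0.12) did not pass. Of the 8 genes for H2A variants, 4 were higher (50%) and 1 lower (12.5%), with *HTA9* (0.71) and *HTA8* (0.66), both of the H2A.Z type, at the upper end. *HTA5*, which encodes H2A.X, was the one that was lower, with −0.44. *HTA3*, at −0.06, did not pass, although both its *nerd-1* libraries lay below those of WT.

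Several H4 genes lie close to other histone genes. *HTB3*, the H2B gene with the lowest log2 difference, lies 1536 bases from AT2G28740 (−0.18) on the opposite strand. *HTB1*, 7298 bases from AT1G07820, was lower by −0.71 on the log2 scale, whereas AT1G07820 was higher by 0.38. *HTB9* and *HTB11*, 13.3 and 29.4 kb from AT3G45930, were lower by −0.22 and −0.81, and *HTB4*, 17.7 kb from AT5G59970, by −0.45. *HTB6*, 22.1 kb from AT3G53730, did not pass (−0.45, limma adjusted *p*-value = 0.0847). The single neighbour of the H2A family, *HTA6* at 29.6 kb from AT5G59970, was higher by 0.55. All these H2B genes are encoded on the strand opposite to that of the H4 gene.

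As the study deals with transcripts that run on from one gene into the next, the nearest gene upstream was also looked up. It lies on the same strand in 4 of the 8 H4 genes. AT3G53740, 135 bases upstream of AT3G53730, was higher in *nerd-1* (log2 difference 0.56, limma adjusted *p*-value = 0.00870), while AT3G53730 itself was at −0.02. AT3G46330, 289 bases upstream of AT3G46320, was lower (−0.48), and so was AT5G59680, 361 bases upstream of AT5G59690 (−0.24), whereas both H4 genes were higher. AT3G45920, 304 bases upstream of AT3G45930, was listed at 0 in every library and was not tested.

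**Figure D4:**
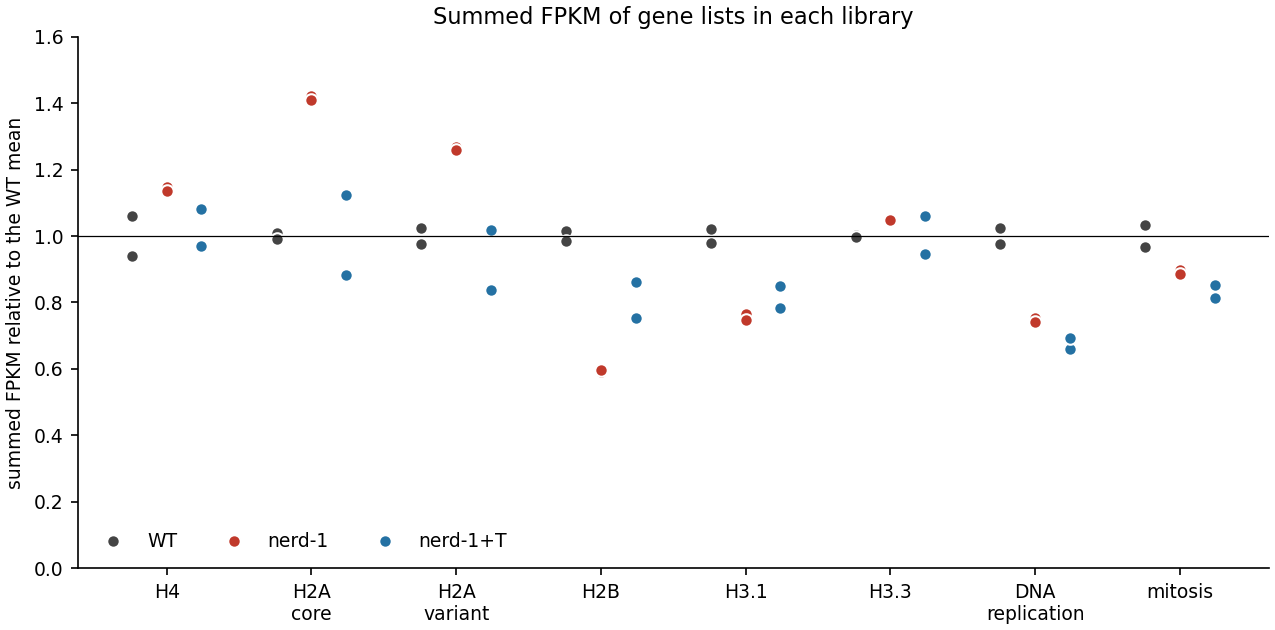
Summed FPKM of gene lists in each library (points), relative to the mean of the 2 WT libraries (vertical axis, line at 1). The *nerd-1* points of H4 lie at 1.15 and 1.14, those of the core H2A genes at 1.42 and 1.41, those of H2B at 0.590 and 0.598 and those of H3.1 at 0.765 and 0.747.

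Histone chaperones escort H4 with H3, or H2A with H2B, to DNA. Of 11 such genes, 1 was higher and 7 lower in *nerd-1* against WT (median log2 difference −0.44). These shares are 9.09% and 63.6%, against 19.4% and 36.3% of all features. *ASF1B*, a chaperone of H3 and H4, was the one that was higher, from 12.8 and 12.7 FPKM in WT to 16.8 and 17.5 in the mutant (log2 difference 0.40, limma adjusted *p*-value = 0.00408). The other H3–H4 chaperone of this kind, *ASF1A*, was at 0.17 and did not pass. *NRP1* and *NAP1;3*, both chaperones of H2A and H2B, had the lowest values, with −1.001 and −0.89 on the log2 scale. *FAS1* and *FAS2*, subunits of the complex that deposits H3.1 and H4 behind the replication fork, were lower by −0.47 and −0.44, while *MSI1*, its remaining subunit, was at 0.07 and did not pass. The last 3 genes were named after their values had been seen.

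Other genes of S phase and mitosis were examined to see how they stood where H4 was higher. In the list of 19 DNA replication genes, of which 18 were tested, 2 were higher and 11 lower in *nerd-1* (median log2 difference −0.33). These shares are 11.1% and 61.1%, against 19.4% and 36.3% of all features. *PCNA1*, the sliding clamp of the replicative polymerases, had 13.0 and 11.1 FPKM in WT, overlapping with the 11.8 and 10.9 of the mutant (log2 difference −0.08, not passing). *MCM5* of the replicative helicase went from 11.0 and 11.8 FPKM in WT to 9.80 and 9.05 in the mutant (−0.25, limma adjusted *p*-value = 0.0223), and *TSO2*, a subunit of ribonucleotide reductase, from 39.3 and 36.3 FPKM to 26.3 and 26.8 (−0.49, limma adjusted *p*-value = 0.00327). The lowest values were those of the licensing factor *CDT1A* (−0.95) and the S-phase cyclin *CYCA3;1* (−0.67). *CDC45* and *CDC6*, which act at replication origins, were the 2 that were higher, by 0.24 and 0.22. These are 2 calls close to the threshold, and neither was called higher when libraries were scaled to equal totals, where 13.1% of all features were higher.

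Of the 21 mitotic genes, 2 were higher (9.52%, against 19.4% of all features) and 6 lower (28.6%, against 36.3%) in *nerd-1*, with a median log2 difference of 0.04. The mitotic genes thus held no larger share of calls than all features in either direction. The mitotic cyclin *CYCB1;1* stood at 3.44 and 3.14 FPKM in WT against 3.56 and 3.53 in the mutant, and *CDKB1;1*, a plant-specific cyclin-dependent kinase, at 5.22 and 5.32 against 5.49 and 5.41. Neither passed (0.08 and 0.04 on the log2 scale). *KNOLLE*, the syntaxin of the cell plate, was lower, with 41.6 and 39.6 FPKM in WT against 30.4 and 29.3 in the mutant (−0.43, limma adjusted *p*-value = 0.00744). *CDKB2;1* (−0.50) and *HINKEL* (−0.45) had the lowest values. *CYCB1;2* was higher by 0.28, and *CDC20.2*, at 0.30, did not pass.

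Among 11 regulators of the entry into S phase, 2 were higher (*CYCD3;2* at 0.34 and *CYCD3;3* at 0.31) and 3 lower, with *E2FC* (−1.10) and *CYCD4;1* (−0.69) at the lower end. These shares (18.2% and 27.3%) are near or below those of all features. Of 6 genes that brake the cell cycle or promote endoreduplication, 0 were higher and 4 lower (66.7%, against 36.3% of all features). They were led by the inhibitors of cyclin-dependent kinases *SMR1* (−1.27) and *SIM* (−0.91). *CCS52A2* and *CCS52A1*, at −0.07 and −0.14, did not pass.

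**Figure D5:**
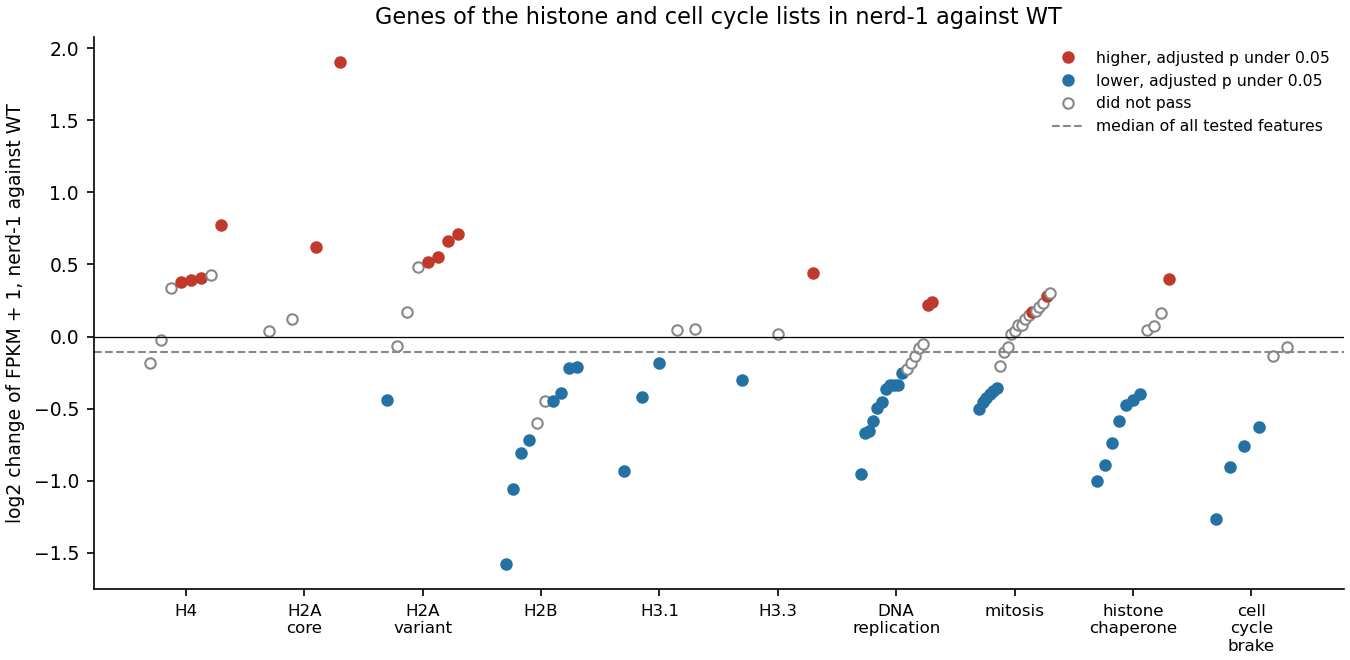
Log2 difference of FPKM + 1 in *nerd-1* against WT (vertical axis) for each tested gene of 10 lists, coloured where the adjusted *p*-value was under 0.05, with the median of all tested features (−0.11) as a dashed line. H4 and both H2A lists hold more higher than lower calls (4 and 0, 2 and 0, 4 and 1), while H2B, H3.1 and DNA replication hold more lower than higher calls (8 and 0, 3 and 0, 11 and 2). Of all features 19.4% were higher and 36.3% lower.

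The makeup of the seedlings was looked at with tissue markers. Of 8 meristem markers, 3 were tested, with 0 higher and 1 lower (33.3%, against 36.3% of all features), namely *KNAT1* (−0.78). The summed FPKM of the 8 was 0.764 and 0.809 times the WT mean in *nerd-1*, and between 0.715 and 0.781 times in *nerd-1*+T, whose H4 sum was 1.08 and 0.969 times that mean. In *nerd-1* the lower sum of the markers rests largely on *KNAT1*, whose mean was 12.2 FPKM in WT and 6.69 FPKM in *nerd-1*. *WUS* and *CLV3*, which define the stem cell niche of the shoot, were at or near 0 in all libraries. Of 7 root markers, 6 were tested, with 2 higher (33.3%, against 19.4% of all features) and 1 lower (16.7%, against 36.3%) in *nerd-1*. The higher ones were *TIP2;3* at 1.13 and *EXPA7* at 0.53, and the lower one was *CASP1* at −0.34. The sum of the 7 was 1.26 and 1.12 times the WT mean in *nerd-1* and 1.34 and 1.09 times in *nerd-1*+T. This excess rests on *TIP2;3*, since without it (an alternative chosen after seeing the data) the sums were 1.05 and 0.921 times in *nerd-1* and 0.895 and 0.789 times in *nerd-1*+T. Of 4 leaf markers, 2 were higher (50%, against 19.4% of all features), namely *LHCB2.1* at 1.94 and *RCA* at 0.43, and *RBCS1A* did not pass (−0.18). The remaining one, *CAB1*, is listed at 0 in 3 libraries, a value that can be a failed estimate, and is not counted. The part of tissue makeup in the H4 values was not tested.

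In *nerd-1*+T against WT, where 0 H4 genes were called, 0 replication genes were higher and 13 of 18 lower (72.2%, against 39.8% of all features), with a median log2 difference of −0.46. Of the mitotic genes 0 were higher and 10 of 21 lower (47.6%), with a median of −0.22 that lies near the −0.17 of all features. H2B had 0 higher and 6 lower (60%), although 1 was higher and 1 lower when the libraries were set to equal medians. H3.1 had 0 higher and 2 lower (40%), a share like the 39.8% of all features. Of the core H2A genes 1 was higher (25%, against 13.2% of all features) and 2 lower (50%). Of the H2A variants 0 were higher and 4 lower (50%). In lists of 4 and 8 genes, these 50% lie near the share of all features. H4 was thus the histone with the fewest calls in this comparison, together with H3.3 (0 of 3). In *nerd-1* against the complemented line, all 4 core H2A genes and 6 of 8 H2A variant genes were higher, with 0 lower. Of the 10 tested H2B genes 5 were lower (50%), with 0 higher. Among all features 24% were higher and 14% lower. Of the DNA replication genes 5 of 18 were higher (27.8%, near that share) and of the mitotic genes 8 of 21 (38.1%), both with 0 lower. The regulators of S-phase entry had 5 of 11 higher (45.5%) and 0 lower. H3.1 had 0 higher and 0 lower, the chaperones 1 and 2, and the genes that brake the cell cycle 0 and 1. With library totals set equal, a scaling that lowers the share of higher calls among all features from 24% to 11.8%, 0 core H2A genes were higher in this last comparison.

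Finally, the genes whose profile over the 6 libraries was most like the mean profile of the 8 H4 genes were looked up among 19231 candidates, as the smallest root-mean-square difference of centred log2(FPKM + 1). They were *FIO1* (AT2G21070, 0.0229), AT1G18680 (0.0279), AT1G62981 (0.0298), AT4G24200 (0.0310) and AT2G21290 (0.0314). *FIO1*, which encodes an RNA methyltransferase, stood at 3.77 and 3.304 FPKM in WT, at 4.63 and 4.54 FPKM in the mutant and at 4.31 and 3.39 FPKM in the complemented line. Against the same profile the H4 genes themselves ranged from 0.0368 (AT1G07820) to 0.230 (AT2G28740). The 5 genes are the closest of many candidates, so that their smaller differences follow from how they were picked.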

How the data were processed

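The deposited FPKM values were made by the authors. Per their Methods, reads of chloroplast, mitochondrial and rRNA genes were removed with Bowtie2 2.3.4, the remaining reads were mapped to TAIR10 with TopHat2 2.0.7, and FPKM were estimated for each library with Cufflinks 2.2.1. How reads that fit several H4 genes were shared is not given in the sources used here. Of 64625 entries per library, 4 without identifier were left out.

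Differences were tested on log2(FPKM + 1) by limma 3.58.1 under R 4.3.3 (one fit of 3 genotypes, mean-variance trend). A feature had to reach 1 FPKM in 2 or more libraries, which left 20249, with Benjamini-Hochberg adjusted *p*-values over all of them and a threshold of 0.05. A log2 difference understates the change of weakly expressed genes. The fit was tested on simulated data. Data were read and drawn with Python 3.11.15, numpy 2.4.6, pandas 2.3.3 and matplotlib 3.10.9. Precision was judged from the replicates.

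The members and gene lists were chosen with earlier results of these data known. Named were all H4 genes, the members of each list with the highest and lowest log2 difference in *nerd-1* (up to 2 each way), 6 reporters of S phase and mitosis, histone genes within 30 kb, and the 5 genes with the most similar profile. Locations and sequences come from the RefSeq annotation of TAIR10.1, in which all 8 genes were matched. Alternatives were scaling to equal totals or medians, a pseudocount of 0.1, no filter or 1 FPKM in every library, a replicate block, only the 2 genotypes compared, leaving out each library and, chosen after seeing the data, summing the near-identical pairs. No protein sequence is shown.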

Additional observations from a re-analysis of the deposited data

How the results depend on the processing

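In *nerd-1* against WT, the number of H4 genes called was 4 and stayed between 3 and 6 with equal library totals (3), equal medians (6), a pseudocount of 0.1 (4), no filter (3), 1 FPKM in every library (5), only the 2 genotypes (6) and summed pairs (3), and ranged from 1 to 6 when single libraries were left out. In *nerd-1*+T against WT it was 0, with 1 under equal medians (AT1G07820, 0.28, limma adjusted *p*-value = 0.0424) and 0 to 3 without single libraries. In *nerd-1* against *nerd-1*+T it was 3, with 1 under equal medians, 1 without filter, 1 with only the 2 genotypes and 1 for summed pairs, and 1 to 6 without single libraries; equal totals gave 1 higher (AT1G07660) and 1 lower (AT3G53730, −0.23, limma adjusted *p*-value = 0.0441). The cause of these shifts was not tested. Equal totals moved the median log2 difference of all features from −0.11 to −0.24 in *nerd-1* against WT, and equal medians moved it to −0.02. The share of higher among all calls in that comparison was 34.8%, 20.5% with equal totals and 47.9% with equal medians. It went from 24.9% to 51.2% with equal medians in *nerd-1*+T against WT, and from 63.1% to 29.7% (totals) and 44.5% (medians) in *nerd-1* against *nerd-1*+T.

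Of the 24 values for single H4 genes (8 genes in 3 comparisons), 8 changed sign under at least 1 alternative. With equal medians these were AT3G53730 in *nerd-1* against WT (0.063) and, in *nerd-1*+T against WT, AT1G07660 (0.0789) and AT2G28740 (0.115). When single libraries were left out, the log2 difference of *nerd-1* and WT ranged from −0.381 to 0.0163 in AT2G28740 and from −0.0645 to 0.0183 in AT3G53730, and that of *nerd-1*+T and WT from −0.24 to 0.15 in AT2G28740, from −0.21 to 0.30 in AT3G45930, from −0.0153 to 0.085 in AT3G53730, from −0.0574 to 0.193 in AT5G59690 and from −0.15 to 0.18 in AT5G59970. The call of AT5G59690 in *nerd-1* against WT was also lost with equal totals (0.26, limma adjusted *p*-value = 0.0587), and that of AT3G46320 without filter (limma adjusted *p*-value = 0.0604).

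Replicate numbers are shared between the genotypes, but deviations from the genotype means were hardly correlated (0.05 for WT and *nerd-1*, 0.09 for WT and *nerd-1*+T, −0.000711 for *nerd-1* and *nerd-1*+T), so that the samples share only a number. With the replicate block, 5 H4 genes were called in *nerd-1* against WT (AT5G59970 added), 0 in *nerd-1*+T against WT and 3 in *nerd-1* against *nerd-1*+T.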
